A study of Homo sapiens with 6 samples.

Results

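Transcripts of the HLA class II system were measured in T98G and U87MG, 2 human glioblastoma cell lines. The genes were the class II chains HLA-DRA, HLA-DRB1, HLA-DPA1, HLA-DPB1, HLA-DQA1 and HLA-DQB1, the peptide exchange chain HLA-DMA, the invariant chain CD74, and the regulators CIITA and RFX5. All probe sets that the platform annotation gives to 1 of these 10 genes alone were taken, which were 23 of 22215 probe sets for transcripts. A further 5 probe sets, listed for several class II genes at once, were kept apart. The 10 genes were chosen by their log2 difference between U87MG and T98G on these same arrays, so their differences are given as a description, without p-values.

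Each line was measured on 3 Affymetrix arrays hybridised with labelled total RNA, 6 arrays in all. The labels name no treatment, engineered allele or added agent for either group, and both lines were grown in the same serum-supplemented medium. T98G is described as undergoing apoptosis with the proteasome inhibitor bortezomib and with a second inhibitor, G5, while partly resisting G5 necrosis, and U87MG as resisting that apoptosis while undergoing G5 necrosis. Each group is a single established line, so every value below stands for these 2 lines alone, and p-values measure only the spread between arrays, because nothing in the labels tells separate cultures from repeat hybridisations.

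HLA class II molecules are heterodimers of an alpha and a beta chain that present peptides from endocytosed proteins to CD4+ T cells. CD74 occupies the binding groove of newly made dimers in the endoplasmic reticulum and directs them to endosomes, where HLA-DM exchanges its last fragment for peptide. Transcription of class II genes, CD74 and HLA-DM requires the RFX complex, of which RFX5 is a subunit, bound with CREB and NF-Y to a conserved promoter module of X and Y boxes, and the coactivator CIITA, which is induced by interferon gamma in many cells outside the immune system. Professional antigen-presenting cells make CIITA without such a stimulus, and class II molecules have also been described on glioma cells.

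The promoter module is shown here because the class II genes share it and most of their probe sets differed together. RefSeq entries of GRCh38.p14 were found for 8 of the 10 genes, at 11 start sites, and the windows below run from position -140 to -21 before the start, 5′ to 3′ on the strand of the gene. Capitals mark ATTGG, the core of the Y box, and an ATG, the end of the X1 box in these genes, that lies 20 to 24 bases before it. In CD74 they mark CCAAT, the same core on the other strand.
HLA-DRB1: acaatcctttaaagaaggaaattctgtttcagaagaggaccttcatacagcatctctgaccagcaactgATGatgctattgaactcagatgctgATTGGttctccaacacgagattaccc
HLA-DPB1: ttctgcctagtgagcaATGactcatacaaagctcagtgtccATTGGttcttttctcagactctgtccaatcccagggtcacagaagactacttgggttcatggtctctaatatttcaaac
HLA-DQA1: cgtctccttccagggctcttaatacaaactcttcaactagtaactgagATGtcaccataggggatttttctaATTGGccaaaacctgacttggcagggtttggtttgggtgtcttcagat
HLA-DQB1: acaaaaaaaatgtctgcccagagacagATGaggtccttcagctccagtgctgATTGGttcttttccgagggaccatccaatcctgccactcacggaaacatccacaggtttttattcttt
HLA-DMA: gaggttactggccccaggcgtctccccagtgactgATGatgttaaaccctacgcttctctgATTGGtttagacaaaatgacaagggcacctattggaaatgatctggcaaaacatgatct
HLA-DPA1: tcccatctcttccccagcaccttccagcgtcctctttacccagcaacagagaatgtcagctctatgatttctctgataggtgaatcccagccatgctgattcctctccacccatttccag
CD74: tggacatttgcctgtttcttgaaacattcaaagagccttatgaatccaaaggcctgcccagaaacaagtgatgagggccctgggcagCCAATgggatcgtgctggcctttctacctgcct

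These windows lie at chr6:32589869-32589988 (HLA-DRB1, minus strand), chr6:33075850-33075969 (HLA-DPB1, plus), chr6:32637266-32637385 (HLA-DQA1, plus), chr6:32666678-32666797 (HLA-DQB1, minus), chr6:32953118-32953237 (HLA-DMA, minus), chr6:33073670-33073789 (HLA-DPA1, minus, the downstream of its 2 starts) and chr5:150412931-150413050 (CD74, minus). The ATG and the ATTGG were 21 bases apart in HLA-DQA1, 22 in HLA-DRB1, HLA-DPB1 and HLA-DQB1, and 23 in HLA-DMA, where a second ATG, left in lower case, lies 20 bases before the same ATTGG, with ATTGG beginning between position -99 (HLA-DPB1) and -46 (HLA-DRB1). This spaced pair, searched on the strand of the gene in the 250 bases before each start and chosen after these sequences were read, was found in 5 of the 6 HLA genes with an entry and in 1.62% of 27305 genes. The pair was not found at either start of HLA-DPA1. ATTGG or CCAAT alone, on either strand, was found in 37% of genes. TTCNNNGAA, the letters of a STAT site, was found at 1 of the 7 HLA starts, that of HLA-DQA1, and in 8.09% of genes.

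Genes outside the 10 were searched in the same way. HLA-DOB and HLA-DQB2 held the spaced pair and were not called different between the lines, whereas HLA-DMB was called higher in U87MG and did not hold it. The pair is an exact string, so a gene without it may still hold X and Y boxes in another form, which was not tested. Among 165 measured genes outside the 10 that held the pair, 7.27% were called higher and 9.09% lower in U87MG, against 6.45% and 6.68% of all 9555 such genes with a promoter entry. A gene or probe set is called here where limma's adjusted p was under 0.05 and the difference at least 2-fold.

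Across the 23 probe sets, 16 were called higher in U87MG, 0 lower and 7 neither, with a median log2 difference of 2.64. Of all 22215 probe sets, 5.93% were called higher and 12.3% in either direction, with a median difference of -0.01. The share of the 10 genes is printed beside that background only to be read with it, since the same contrast chose them. All 3 U87MG arrays stood above all 3 T98G arrays for 18 of the 23 probe sets, against 23% of all probe sets (the lines did not overlap in either direction for 49.1%), and 10 of the 23 were at least 10-fold higher, against 0.716%. The probe sets of class II chains and CD74 accounted for 15 of the 16 calls, and CIITA for the other. With 1 probe set per gene, the brightest, all 7 HLA chains and CD74 were without overlap and 6 of these 8 were at least 10-fold higher, against 52% and 0.928% of 11963 genes. Averaged over their probe sets, HLA-DQA1 had 2.02, HLA-DQB1 2.50 and HLA-DPA1 3.26 on the log2 scale, and 3 of the 8 were at least 10-fold higher. HLA-DRB1, HLA-DPB1 and HLA-DMA each rest on 1 probe set, whose identifier marks multiple matching. An array of bulk RNA cannot tell whether all cells of a line carried a transcript or more cells did.

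**Figure D1:**
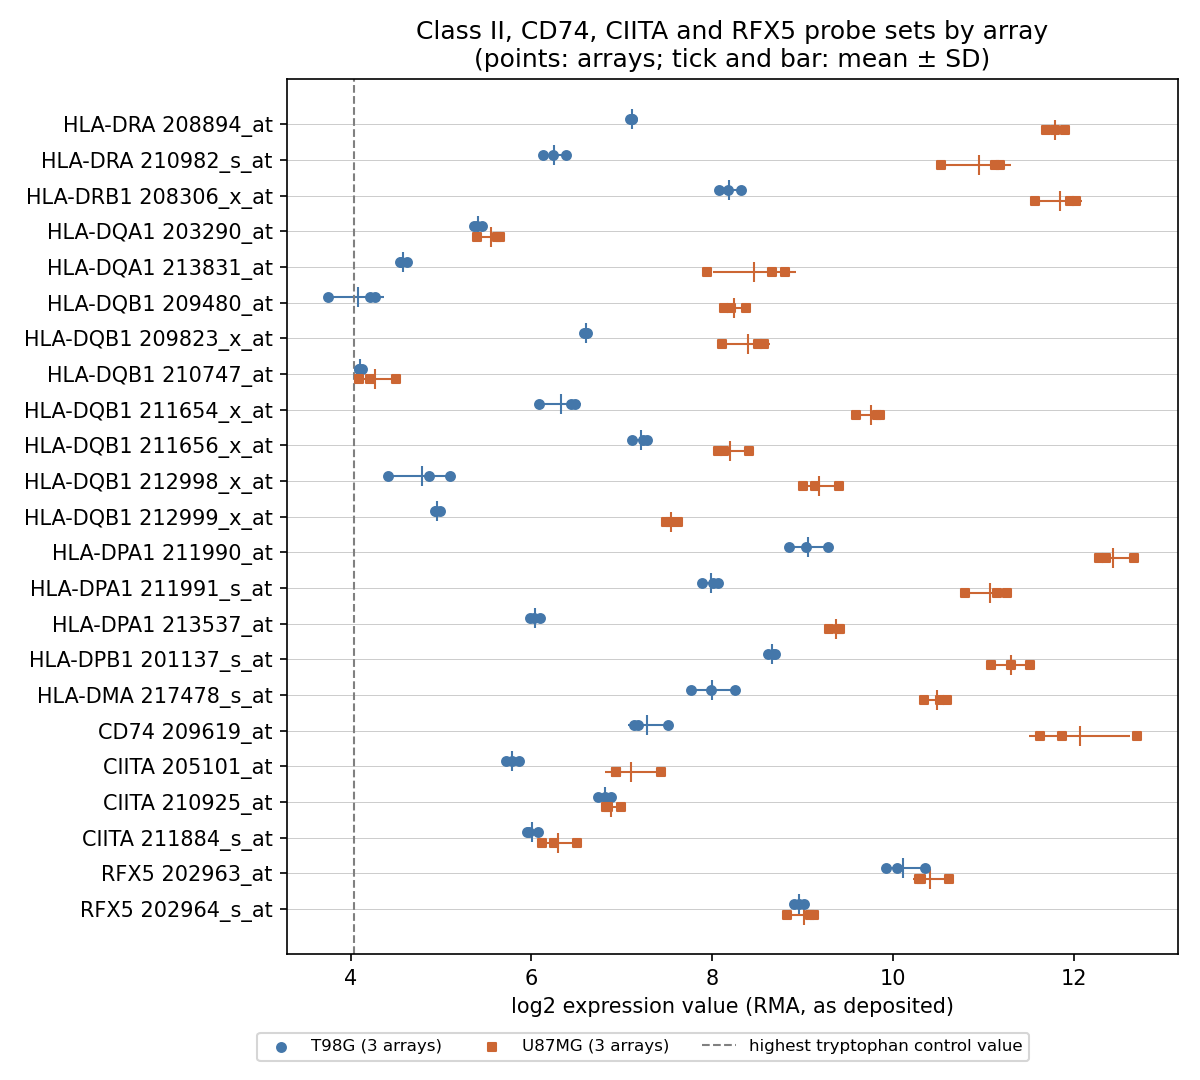
Log2 expression value of each of the 23 probe sets on the 6 arrays (points), with the mean and SD of each line (tick and bar) and the highest value of the tryptophan control probe sets, 4.03 (dashed line). The U87MG arrays stand apart to the right for most class II probe sets and CD74, while both lines overlap for RFX5 and for some probe sets of HLA-DQA1, HLA-DQB1 and CIITA.

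The correlation of log2 values was 0.991 to 0.997 within a line and 0.934 to 0.938 between the lines. Control probe sets for a bacterial tryptophan gene, which has no transcript in these samples, read 3.32 to 4.03, and values near them carry little information on level. The poly-A spike-in controls averaged 5.30 on U87MG replicate 3 and 6.10 to 6.84 elsewhere. Without that array the difference of the 23 probe sets moved by at most 0.32 on the log2 scale, in CD74, and 16 were still called.

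HLA-DR was 12.7-fold to 25.9-fold higher in U87MG. HLA-DRA encodes the alpha chain of HLA-DR, which hardly varies between people, and its probe set 208894_at read 7.11, 7.10 and 7.12 in T98G and 11.69, 11.90 and 11.79 in U87MG. The T98G arrays agreed within a few hundredths of a log2 unit and stood far below every U87MG array (log2 difference 4.68, SE 0.10). The second probe set of HLA-DRA, 210982_s_at, read 6.39, 6.24 and 6.12 in T98G and 10.52, 11.18 and 11.13 in U87MG, a log2 difference of 4.70 (SE 0.18). Both probe sets gave nearly the same difference, 25.7-fold and 25.9-fold. HLA-DRB1 encodes the most widely expressed beta chain of HLA-DR, and its probe set read 8.17, 8.07 and 8.32 in T98G and 11.57, 11.96 and 12.02 in U87MG. The groups did not overlap, at 12.7-fold (log2 3.66, SE 0.14).

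Beta-chain probe sets that the annotation lists for several genes were mostly higher as well. The probe set for HLA-DRB1 and HLA-DRB4 read 7.98, 8.10 and 8.14 in T98G and 11.56, 11.86 and 11.92 in U87MG (log2 difference 3.71, SE 0.12). Among the 5 probe sets listed for a member together with other genes, 4 were called higher, at log2 3.71 to 4.63, and the last, listed for 6 genes, had a difference of 0.69 with overlapping arrays. The probe sets listed for HLA-DRB4 alone had differences from -0.10 to 0.07 over 3 probe sets, and none was called. HLA-DRB4 is a second DR beta gene that only some haplotypes carry. HLA genes are highly polymorphic and have near-identical relatives, so a probe set can detect more than its listed gene or miss an allele, which was not tested.

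HLA-DP was 6.22-fold to 10.4-fold higher. HLA-DPA1, the alpha chain, has 3 probe sets, and the brightest read 8.85, 9.04 and 9.28 in T98G and 12.28, 12.67 and 12.35 in U87MG. The other probe sets of HLA-DPA1 had log2 differences of 3.08 and 3.33, close to the 3.37 (SE 0.15) of the brightest, and no array of one line reached the other on any of the 3. HLA-DPB1, the beta chain, read 8.69, 8.62 and 8.67 in T98G and 11.08, 11.31 and 11.52 in U87MG. The arrays of the lines were again separate, with a log2 difference of 2.64 (SE 0.12).

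HLA-DQ differed as well, but its probe sets disagreed. HLA-DQA1, the alpha chain, read 4.55, 4.56 and 4.62 in T98G and 7.94, 8.80 and 8.66 in U87MG on probe set 213831_at, a 14.8-fold difference (log2 3.89, SE 0.20). On its other probe set, 203290_at, the same gene read 5.40, 5.45 and 5.37 in T98G and 5.62, 5.40 and 5.65 in U87MG, with overlapping arrays and a log2 difference of 0.15 (SE 0.10). A probe set listed for HLA-DQA1 and its relative HLA-DQA2 had values of 3.82 to 4.12 in T98G and 7.60 to 8.62 in U87MG, at least 17.7-fold higher with T98G values under 4.03 set to 4.03.

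HLA-DQB1, the beta chain, has 7 probe sets, and their log2 differences ran from 0.17 to 4.39 with a median of 2.59. The brightest, 211654_x_at, read 6.48, 6.08 and 6.43 in T98G and 9.59, 9.82 and 9.86 in U87MG (10.7-fold, log2 3.42, SE 0.14). Probe set 212998_x_at differed by 4.39 (SE 0.18), at 4.42, 5.10 and 4.87 against 9.00, 9.40 and 9.14, with all U87MG arrays above all T98G arrays. Probe set 209480_at, with no sign of multiple matching in its identifier, read 4.27, 3.75 and 4.21 in T98G, at the level of the tryptophan controls, and 8.20, 8.38 and 8.13 in U87MG, which is at least 16.7-fold higher. Probe set 210747_at read 4.09 to 4.13 in T98G and 4.10 to 4.50 in U87MG, so it was near the controls in both lines and gave no fold. Just under the 2-fold minimum lay 211656_x_at at log2 0.99, and just past it among the 23 lay a CIITA probe set at 1.31.

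**Figure D2:**
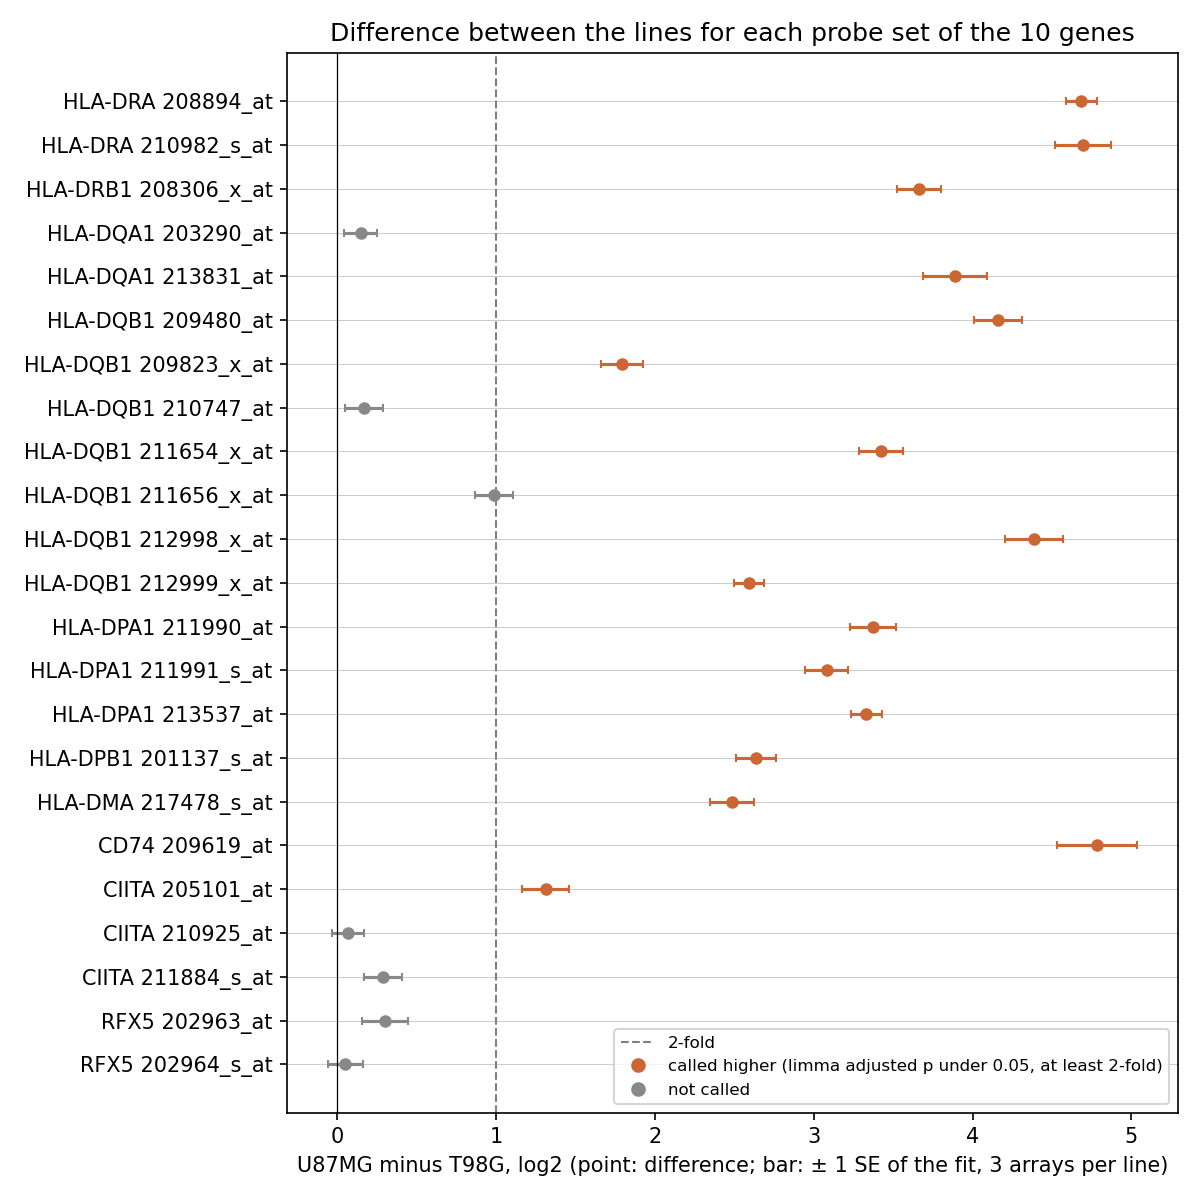
Difference U87MG minus T98G (log2, point) with ± 1 SE of the limma fit (bar, 3 arrays per line) for each of the 23 probe sets, with 2-fold marked by the dashed line. Points of 1 gene lie together for HLA-DRA and HLA-DPA1 and are spread from 0.17 to 4.39 for HLA-DQB1. The lowest of these, 210747_at, read near the controls in both lines.

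CD74 and HLA-DMA, which act in assembly and loading, were higher in U87MG by 27.6-fold and 5.60-fold. CD74 read 7.14, 7.18 and 7.52 in T98G and 11.62, 11.86 and 12.70 in U87MG. Its U87MG arrays were the most scattered of the 23 probe sets (12.06 ± 0.56, SD, n = 3), yet the lowest of them lay far above the highest T98G array. The log2 difference of 4.78 (SE 0.25) became 4.47 without U87MG replicate 3 and 5.00 without U87MG replicate 1. HLA-DMA, the alpha chain of HLA-DM, read 7.76, 7.99 and 8.25 in T98G and 10.34, 10.52 and 10.60 in U87MG, without overlap. Its difference of 2.48 (SE 0.14) was the smallest among the brightest probe sets of the 7 HLA chains and CD74.

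The spread between U87MG arrays was partly shared among these probe sets. U87MG replicate 1 was the lowest of its line for 13 of the 16 called probe sets and the highest for 0 of them, with a median deviation of -0.17 from the line mean and the furthest at -0.53 (HLA-DQA1). Over all probe sets the median deviation of that array was 0.01, and how often it was the lowest was not counted. The 16 are not independent, since some genes have several probe sets among them, HLA-DQB1 5. U87MG replicates 2 and 3 were the highest for 9 and 7 of the 16. The hybridisation controls averaged 11.53 on U87MG replicate 1 and 10.40 to 10.88 on the other arrays, and their part in this order was not tested. In T98G no array was the lowest for more than 8 of the 16, and replicate 3 was the highest for 8 and the lowest for 2.

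**Figure D3:**
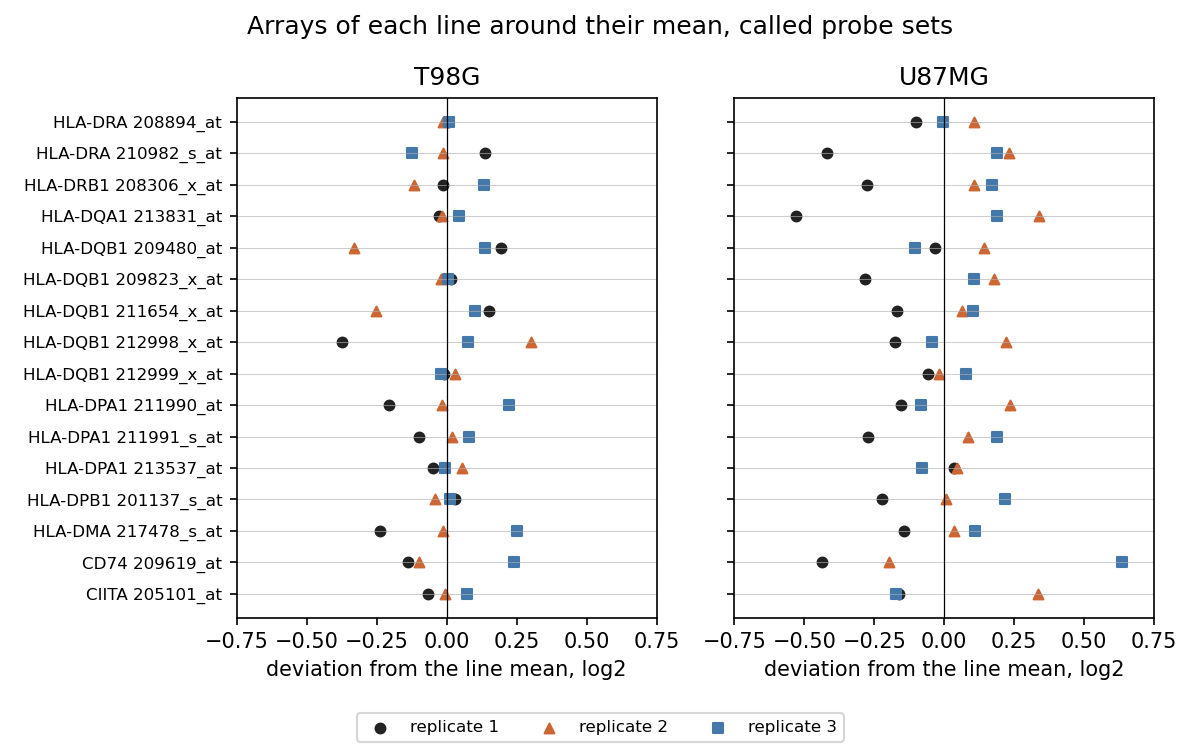
Deviation of each array from the mean of its line (log2) for the 16 called probe sets, with T98G on the left and U87MG on the right and a marker for each replicate. U87MG replicate 1 (dark circles) lies lowest for 13 of the 16 probe sets. The order is less marked in T98G, where replicate 3 lies highest for 8 and lowest for 2.

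The regulators had 1 call among their 5 probe sets, in CIITA. CIITA, the coactivator that class II transcription depends on, has 3 probe sets, which disagreed. Probe set 205101_at read 5.72, 5.78 and 5.86 in T98G and 6.94, 7.43 and 6.93 in U87MG, 2.48-fold higher without overlap (log2 1.31, SE 0.15). The brightest, 210925_at, read 6.74, 6.82 and 6.88 in T98G and 6.82, 6.84 and 6.99 in U87MG, overlapping at a log2 difference of 0.07 (95% interval -0.16 to 0.30). The last, 211884_s_at, read 5.95 to 6.08 in T98G and 6.12 to 6.50 in U87MG, without overlap. Its log2 difference of 0.29 (95% interval 0.02 to 0.56) was under the 2-fold minimum. All 3 lay under 7.63, the median of the probe set means, in both lines, so CIITA was dim on these arrays. CIITA has several promoters, and RefSeq's promoter table used here held no entry for it or for HLA-DRA.

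RFX5, the subunit of the RFX complex that binds the X box, was bright on both probe sets, and neither was called. The brighter read 10.05, 9.92 and 10.35 in T98G and 10.62, 10.29 and 10.31 in U87MG, with overlapping arrays and a log2 difference of 0.30 (95% interval -0.02 to 0.63). The other read 9.02, 8.96 and 8.90 against 9.08, 8.83 and 9.12 (log2 0.05, 95% interval -0.20 to 0.30). Both intervals lie within 2-fold.

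Of 22 other measured genes of the enhanceosome, the protein complex on the X and Y boxes, and of CIITA's partners, 1 was called higher and 2 lower in U87MG, with a median log2 difference of 0.18. Over all 11963 genes, each represented by its brightest probe set, 6.56% were called higher and 7.01% lower, with a median of -0.01. RFXANK, a partner of RFX5 in the RFX complex, had a difference of -0.06 (SE 0.11) and CREB1, which binds the X2 box, 0.20 (SE 0.12), neither called. RFXAP, the remaining RFX subunit, read 6.98, 6.71 and 7.00 in T98G and 7.74, 7.61 and 7.64 in U87MG, short of 2-fold (log2 0.77, SE 0.11, limma adjusted p = 0.000422). NFYA, the DNA-contacting subunit of the Y-box factor NF-Y, was lower in U87MG by 2.30-fold (9.00 ± 0.15 in T98G and 7.80 ± 0.15 in U87MG, SD, n = 3, limma adjusted p = 3.5e-05), although its 4 probe sets ran from -1.31 to -0.67. NFYB and NFYC, the other NF-Y subunits, were not called, at 0.23 and 0.41. CREBBP, a histone acetyltransferase that CIITA recruits, was lower by 2.73-fold on the brightest of its probe sets and had -0.37 on the other. KAT2B, an acetyltransferase that modifies CIITA, was 2.93-fold higher (limma adjusted p = 1.45e-05). Averaged over their probe sets, neither NFYA (-0.98) nor CREBBP (-0.91) passed 2-fold.

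Genes that respond to interferon gamma were more often lower than higher in U87MG. Of 29 measured interferon gamma induced genes, 1 was called higher and 9 lower in U87MG, with a median log2 difference of -0.83. The shares over all genes were 6.56% and 7.01%, with a median of -0.01. IRF1, a transcription factor that acts on an interferon-responsive CIITA promoter, read 10.55, 10.12 and 10.45 in T98G and 8.80, 8.55 and 8.64 in U87MG (3.28-fold lower, limma adjusted p = 5.81e-06). It is not among the 29 and is counted with receptor signalling below. Among the 29 were the following genes. GBP1, a guanylate-binding GTPase, was 4.12-fold lower, IFITM1, a membrane protein that restricts viruses, 6.87-fold lower and BST2, which tethers budding viruses, 18.7-fold lower. IFI44 was the exception, at 2.87-fold higher (limma adjusted p = 0.000112).

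Among 17 measured genes of interferon gamma receptor signalling, 0 were called higher and 3 lower, against 6.56% and 7.01% of all genes. The 3 were IRF1, STAT3 and the receptor chain IFNGR2. An unadjusted limma p under 0.05 was found for 9 of the 17, a share not worked out over all genes. On adjusted p alone, with no minimum fold, 3 of the 17 were higher and 5 lower. By that rule 4942 of all 11963 genes passed in either direction. IFNGR2 had a difference of -1.01 (SE 0.12), which fell short of 2-fold without T98G replicate 1 (-0.98), T98G replicate 3 (-0.94) or U87MG replicate 2 (-0.96). IFNGR1, the ligand-binding chain, had -0.87 (SE 0.10). STAT3, a signal transducer shared with other cytokines, had -1.03 (SE 0.11) and fell short without T98G replicate 3 (-0.95) or U87MG replicate 3 (-0.98). JAK2, a kinase bound to the receptor, had 0.94 (SE 0.16) on its brightest probe set and 1.25 on the other, which was called, and passed 2-fold without U87MG replicate 3 (1.12). JAK1 and SOCS1, a feedback inhibitor, had -0.08 and -0.00, neither called.

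HLA class I, which presents peptides to CD8+ T cells, had 0 of 6 measured genes called in either direction, against 13.6% of all genes. In the limma fit 1 of the 6 had an unadjusted p below 0.05, a share not worked out over all genes. That gene was B2M, the partner chain of class I, which passed on its adjusted p (limma, 0.0421) but not on fold (log2 0.27), at 13.96, 13.89 and 13.97 in T98G and 14.19, 14.21 and 14.20 in U87MG. HLA-B read 13.60 to 13.83 in T98G and 13.72 to 13.94 in U87MG.

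**Figure D4:**
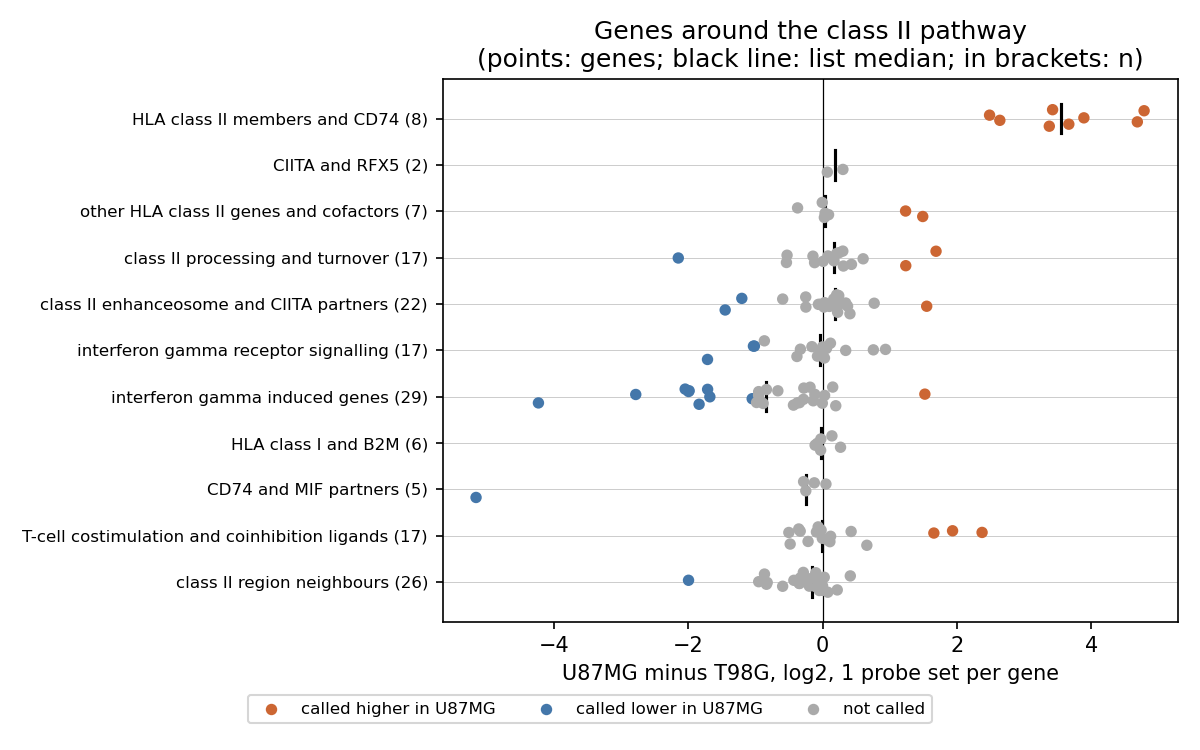
Difference U87MG minus T98G (log2) of each measured gene (point, 1 probe set per gene) in the class II genes with CD74, in CIITA with RFX5, and in the lists around them, with the median of each list as a black line. The 7 HLA chains and CD74 lie between 2.48 and 4.78, the 29 interferon gamma induced genes have a median of -0.83, and no list around them has a median above 0.18.

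The other class II genes divided by gene. Of 7 measured, 2 were called higher, against 6.56% of all genes. HLA-DMB, the beta chain of HLA-DM, read 7.66, 7.50 and 7.97 in T98G and 8.98, 8.87 and 8.97 in U87MG, without overlap (2.35-fold, log2 1.24, SE 0.13, limma adjusted p = 4.58e-05). HLA-DRB6, a DR pseudogene, was 2.81-fold higher on a multiply matching probe set (log2 1.49, limma adjusted p = 0.000705) and at 0.21 on its other, with a mean of 0.85 that was not called. HLA-DOB, the beta chain of the HLA-DM inhibitor HLA-DO, read 6.79, 6.68 and 7.01 in T98G and 6.26, 6.33 and 6.77 in U87MG and was not called (-0.37, SE 0.15). HLA-DOA, its alpha chain, had 0.04, and HLA-DQB2, HLA-DRB4 and the pseudogene HLA-DPA2 had 0.09, 0.03 and -0.00, none of them called.

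Proteases and other factors of class II processing and turnover had 2 genes higher, 1 lower and 14 neither of 17 measured. Over all genes 6.56% were called higher and 7.01% lower. CTSL, a cathepsin that can cut CD74 in some tissues, read 10.69, 10.76 and 10.66 in T98G and 12.52, 12.41 and 12.24 in U87MG, 3.22-fold higher (limma adjusted p = 1.37e-06). CTSS, the cathepsin that cuts CD74 in most antigen-presenting cells, had 7.75, 7.74 and 7.74 in T98G and 8.15, 7.95 and 7.86 in U87MG and was not called (log2 0.25, SE 0.11, limma adjusted p = 0.0937). MARCHF8, a ubiquitin ligase of membrane proteins, was 2.36-fold higher, and the cathepsin gene CTSH was 4.43-fold lower. CTSL, MARCHF8 and CTSH each rest on 1 probe set whose identifier marks multiple matching, and without such probe sets 10 genes and no call were left in this list.

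Receptors and ligands at the cell surface that act with class II or CD74 were compared next. MIF, the cytokine that binds surface CD74, read 13.54, 13.59 and 13.54 in T98G and 13.34, 13.40 and 13.56 in U87MG. The 5 measured genes around CD74 and MIF held 1 call, ACKR3, a chemokine receptor, at least 33.3-fold lower in U87MG. Of 17 ligands for T-cell costimulation or inhibition, 3 were called higher and 0 lower, against 6.56% and 7.01% of all genes. PDCD1LG2, a ligand of the inhibitory receptor PD-1, was 5.18-fold higher (5.25 ± 0.10 in T98G and 7.62 ± 0.11 in U87MG, SD, n = 3), CD70, the ligand of CD27, 3.82-fold higher, and TNFSF9, the ligand of 4-1BB, 3.15-fold higher. CD40, in the same list, was not called on its brightest probe set (log2 0.66). Its 4 probe sets ran from 0.47 to 1.65, and 2 of them were called higher.

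Neighbouring genes on the chromosome were compared next. The 26 measured genes compared are no class II gene and lie between HLA-DRA and HLA-DPB1, or are among the 10 nearest on either side. Of these, 0 were called higher and 1 lower in U87MG, against 6.56% and 7.01% of all genes. Their median log2 difference was -0.16. The lower gene was PSMB9, an interferon-inducible proteasome subunit, at 11.01, 10.64 and 10.98 in T98G and 8.99, 8.63 and 9.02 in U87MG. PSMB9, PSMB8, TAP1 and TAP2 are also among the 29 interferon gamma induced genes, so the 2 lists are not separate. TAP2 was not called on its brightest probe set (-0.83), while 1 of its 3 probe sets was called lower (-1.42).

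Markers of professional antigen-presenting cells were compared between the lines. Of 26 measured haematopoietic markers, 1 was called higher and 1 lower, against 6.56% and 7.01% of all genes. PTPRC, the pan-leukocyte marker CD45, had 4.33 ± 0.12 in T98G and 4.55 ± 0.36 in U87MG, and the B-cell marker MS4A1 4.77 ± 0.14 and 4.84 ± 0.26 (SD, n = 3). CSF1R, the receptor of macrophage growth factor, was 2.02-fold higher, and LAPTM5, a lysosomal protein of leukocytes, was 22.4-fold lower in U87MG. The other markers named for their brightness were not called. CD83 had 6.74 ± 0.11 in T98G and 7.47 ± 0.41 in U87MG, without overlap (log2 0.73, limma adjusted p = 0.0101). CORO1A had 7.56 ± 0.01 and 6.64 ± 0.08, also without overlap (log2 -0.92, limma adjusted p = 4e-05). CD3E had 7.34 ± 0.10 and 7.16 ± 0.16, with overlapping arrays (SD, n = 3). The summed level of the list was 11.87 to 12.13 in T98G and 10.86 to 11.09 in U87MG on the log2 scale. Without LAPTM5, the brightest of the list in T98G, it was 10.84 ± 0.04 and 10.90 ± 0.10 (SD, n = 3) with overlapping arrays, so that gap rests on 1 of the 26 genes, and the sum was redone in this way after the values were seen. On each array 1 of the 26 markers read at or under the tryptophan controls. At most 1 of the 26 read over the median of all transcript probe sets on any array. Among 14 astrocytic and glioma markers, 2 were called higher and 1 lower in U87MG. NES, a filament of neural progenitors, was 5.85-fold higher, SLC1A3, a glutamate transporter, 2.05-fold higher and SOX9, a transcription factor of glia, 3.98-fold lower. VIM, CD44 and GJA1 were bright in both lines. GFAP, the defining astrocyte filament, had 6.42 ± 0.04 in T98G and 6.52 ± 0.04 in U87MG, low on this scale. S100B was low too, at 4.13 ± 0.16 and 4.23 ± 0.08. Of 7 endothelial markers, KDR was called higher (5.03 ± 0.08 in T98G and 8.29 ± 0.25 in U87MG) and 6 were not called. Of these, VWF had 6.05 in T98G and 6.13 in U87MG, TEK 6.40 and 6.36, CLDN5 5.90 and 5.78, and CDH5 4.03 and 3.95. The part of these markers in the class II differences was not tested.

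Genes outside the 10 whose 6-array profile was closest to that of HLA-DRA were CTSK, a cathepsin of bone and matrix turnover, DSG2, a desmosomal cadherin, and MTSS1, an actin-binding scaffold. Likeness was the root mean square distance between log2 profiles centred on the T98G mean. It was 0.08 for CTSK, 0.13 for DSG2 and 0.15 for MTSS1 over 6 arrays. This distance mostly follows the size of the U87MG minus T98G difference, which also chose the 10 genes. That difference was 4.68 in HLA-DRA, 4.72 in CTSK, 4.81 in DSG2 and 4.65 in MTSS1. CTSK read 6.73, 6.85 and 6.93 in T98G and 11.54, 11.59 and 11.54 in U87MG. For CD74 the closest were the chemokine gene CXCL2 (0.28), the myosin light chain gene MYL9 (0.29) and DSG2 (0.30), and the closest of the 10 genes was HLA-DRA at 0.35. The remaining genes of the 10 lay 0.60 or further from HLA-DRA, which for the most part restates their smaller differences.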

How the data were processed

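Total RNA of T98G and U87MG (3 arrays each) was labelled by a one-cycle protocol for Affymetrix arrays, per the labels. The deposited values are log2 signals, 1 per probe set; the submitters' processing notes name RMA (background correction, quantile normalization and probe summary) and limma, without versions. RMA equalises the arrays and compresses dim differences. Values ran from 2.90 to 14.93.

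Of 22277 probe sets, 62 were controls, 19064 had 1 gene, 1043 several and 2108 none in the platform annotation of 2016. Symbols were updated by Entrez identifier from RefSeq (19052 matched). The 10 genes and the lists were chosen with earlier results of these data known. Named genes were all members, fixed regulators, up to 3 called genes per direction of each list, or the 2 with the smallest p, the 3 brightest markers per line, and the nearest profiles. Beyond that rule, called markers and the defining markers GFAP, S100B, PTPRC, MS4A1 and CDH5 were added after their values were seen.

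U87MG minus T98G was fitted with limma 3.58.1 in R 4.3.3 (lmFit, eBayes, two-sided, 4 residual degrees of freedom) over 22215 probe sets and over 11963 genes by brightest probe set, with Benjamini-Hochberg adjustment over each. On simulated data of 11963 genes for this comparison, the fit called 94 of 100 genes given a log2 shift of 1.5 and 100 of 100 given one of 3, with 0 false calls. Precision is limited by the number of arrays (median residual SD 0.15 on the log2 scale).

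Alternatives were averaging the probe sets of each gene, repeated median or quantile scaling, a filter on dim probe sets (mean over 7.63 in at least 1 line), trend with robust variance, no minimum fold, treat, removal of identifiers ending in _x_at, _s_at or _a_at, a replicate block, and leaving out each array. Genes of the lists without a probe set of their own were not analysed here.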

Additional observations from a re-analysis of the deposited data

How the results depend on the processing

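All 16 called probe sets of the 10 genes stayed called in every alternative that kept them, except the CIITA probe set 205101_at under treat. The HLA-DQB1 probe set at log2 0.99 passed 2-fold in some. Without multiply matching probe sets, 7 of 11 remaining probe sets of the 10 genes were called. In all 1389 probe sets were called, and their share of those kept was not worked out. This setting left HLA-DRB1, HLA-DPB1 and HLA-DMA without a value. Among lists 1 other class II gene was then higher, 0 processing genes were higher and 0 lower, and 1 receptor signalling gene was higher. The filter on dim probe sets left CIITA without a value. With no minimum fold, 4942 genes and 8345 probe sets were called. The lists then had 5 higher and 3 lower (processing), 4 higher (enhanceosome), 3 higher and 5 lower (receptor signalling), 20 lower (interferon gamma induced), 1 higher (class I), 5 higher and 4 lower (costimulation) and 1 higher and 8 lower (neighbours). Under treat against 2-fold, 873 genes and 1336 probe sets were called, with 0 other class II genes higher, 1 processing gene higher, 1 enhanceosome gene lower, 1 receptor signalling gene lower and 0 interferon gamma induced genes higher. With each gene's probe sets averaged, 1 other class II gene was higher, 0 enhanceosome genes were lower and 1 receptor signalling gene was higher, and the log2 difference became 2.02 for HLA-DQA1, 2.50 for HLA-DQB1 and 0.56 for CIITA. Repeated quantile normalization left 1 receptor signalling gene lower. Leaving out single arrays gave 1 to 2 neighbours lower (2 without T98G replicate 2 or U87MG replicate 1), 1 to 3 receptor signalling genes lower (1 without T98G replicate 3) and 0 to 1 higher (1 without U87MG replicate 3). The causes were not tested.

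The replicate numbers are not said to pair the arrays, and same-numbered arrays deviated together at r = 0.15, 0.08 and 0.08. Each array correlated best with its own number, as a hint from the data. With a replicate block, 1626 genes against 1624 and the same 16 probe sets of the 10 genes were called, and no count moved past 1.5 times. Depth does not apply to arrays, and signal near the tryptophan controls limits some probe sets of HLA-DQA1 and HLA-DQB1.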
